A study of Mus musculus with 69 samples.

Results

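WT cells of WT + WT mosaic gastruloids were compared between 96 h and 120 h of development. All libraries labelled as sorted WT–mCherry or WT–emiRFP cells of WT + WT gastruloids at either time were taken, which gave 12 of the 69 libraries of the series, 6 at 96 h and 6 at 120 h, with 3 replicates of each clone at each time. The study followed cell competition between WT cells and cells without p53 in gastruloids, aggregates of mouse embryonic stem (mES) cells that elongate and form parts of the embryonic body plan. Poly(A) RNA of sorted cells was sequenced as stranded libraries. Both WT clones derive from male E14Tg2A mES cells. WT–mCherry carries H2B–mCherry under the EF1α promoter, and WT–emiRFP carries H2B–emiRFP670 under the CAG promoter. They were seeded together at 150 + 150 cells per gastruloid, and all gastruloids received the Wnt agonist CHIR99021 from 48 h to 72 h, so that every library of both time points had been exposed to it. Each line is 1 clone, and the 2 clones of a replicate were sorted by fluorescence-activated cell sorting from the same pooled gastruloids. At later points 2 further cell groups are used for comparison, each with 3 libraries per time: WT–mCherry cells that grew beside p53KO–emiRFP cells in WT + p53KO gastruloids (150 + 25 cells), and those p53KO–emiRFP cells themselves, 1 clone with a homozygous frameshift in Trp53 that was made from WT–emiRFP.

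In the elongating embryo and in gastruloids, a caudal pool of progenitors that expresses the T-box factor T (Brachyury) is kept by Wnt and FGF signals. Its descendants pass through presomitic mesoderm, where Msgn1 and Tbx6 are expressed and where an oscillator of Notch and Wnt target genes runs, and are cut into somites under Mesp2 and Ripply2. Somites are then divided into a posterior part marked by Uncx and an anterior part marked by Tbx18, and into dermomyotome with Pax3 and sclerotome with Pax1 and Pax9. Hox genes are switched on in the order of their position in each cluster while the axis elongates.

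The 12 libraries held 46254303 to 61890032 counts, and 18749 of the 55367 gene symbols had enough counts to be tested. Values below are normalized counts, the deposited counts divided by a size factor per library. The sort was checked on H2bc14, a histone H2B gene with high counts only in libraries of emiRFP lines. At 96 h it was at 32.8 to 105 normalized counts in WT–mCherry cells and at 7566 to 8767 in WT–emiRFP cells, and at 120 h at 78.3 to 125 and 5947 to 6811. The WT–mCherry mean was 0.827% of the WT–emiRFP mean at 96 h and 1.62% at 120 h. The study states that purity was not measured after sorting. The libraries of both clones of replicate 2 at 120 h stood apart in genes that respond to cell dissociation: their 13 genes summed to 23390 and 23372 normalized counts, against 11617 to 14022 in the other 10 libraries. List counts that moved most without those 2 libraries are given both ways. Replicates are separate experiments of the same clones, but the 6 libraries of a time come from 3 gastruloid pools whose clones deviated together, and the main test counts them as 6. With both clones summed per pool 8653 genes passed, 8364 of them among the 10331 given below. In pooled sorted cells, fewer cells of a type and less RNA per cell cannot be told apart.

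Between 96 h and 120 h, 5023 genes rose (26.8% of those tested) and 5308 fell (28.3%), so that 10331 genes (55.1%) passed an adjusted p under 0.05 in edgeR's quasi-likelihood test with clone as a covariate and Benjamini-Hochberg adjustment, which all adjusted p-values below refer to. The counts of rises and falls in the gene lists below are to be read against these 26.8% and 28.3%. The median log2 fold change of all tested genes was −0.02. Most of the calls were small: 2405 of the 10331 genes changed at least 2-fold, of which 1573 rose (8.39% of those tested) and 832 fell (4.44%). Among changes of at least 4 on the log2 scale, 52 genes rose and 31 fell. The 6 libraries of 120 h did not overlap with the 6 of 96 h for 6023 genes (32.1%), of which 2973 (15.9%) were higher and 3050 (16.3%) lower at 120 h. In 9178 of the 10331 called genes, each of the 6 pairs of libraries of the same clone and replicate number moved the same way. This is a description only, as the replicate numbers were not taken to pair the times. The 6 pairs are also not independent, because the clones of a gastruloid pool deviated together.

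**Figure D1:**
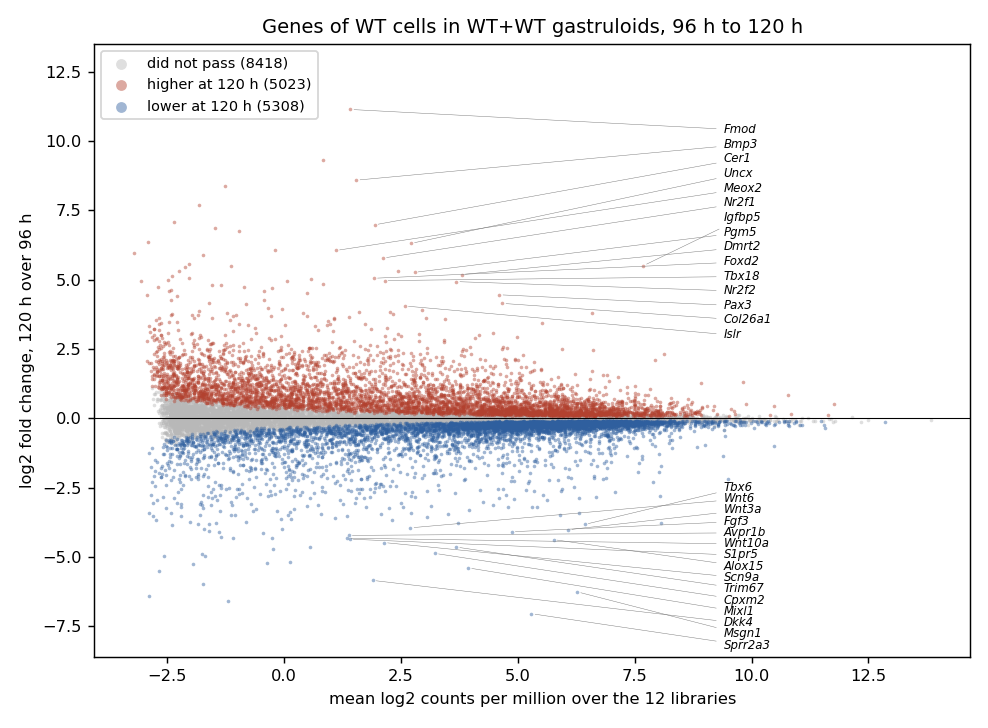
Log2 fold change from 96 h to 120 h (y axis) against mean log2 CPM over the 12 libraries (x axis) for the 18749 genes tested, 1 point a gene, with red points for genes that rose, blue for genes that fell and grey for genes that did not pass. The named genes are the 15 largest rises and 15 largest falls at a mean log2 CPM of at least 1 with the same direction in all 6 pairs, which leaves out Fosb. The value drawn for Fmod depends on the prior count of the fit, because Fmod had no count at 96 h.

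The largest rises at a mean log2 CPM of at least 1 with the same direction in all 6 pairs were those of Fmod, Bmp3, Cer1, Uncx, Meox2, Nr2f1, Igfbp5, Pgm5, Dmrt2, Foxd2, Tbx18, Nr2f2, Pax3, Col26a1 and Islr. Uncx, Meox2, Dmrt2, Foxd2, Tbx18 and Pax3 are transcription factors of somites and their derivatives. Nr2f1 (log2 fold change 5.78 ± 0.18) and Nr2f2 (4.93 ± 0.25) are orphan nuclear receptors that respond to retinoic acid, and Bmp3 (8.59 ± 0.42) and Cer1 (6.98 ± 0.30) are secreted, Cer1 being an antagonist of Nodal and BMP ligands. Fmod, which encodes the matrix proteoglycan fibromodulin, had no count in any of the 6 libraries at 96 h and 1735 counts in all at 120 h, at least 91.4-fold higher than a floor of 3 counts per library. Igfbp5, an insulin-like growth factor binding protein, was at 350.2 to 650.4 (median 405) normalized counts at 96 h and at 15096 to 27463 (median 21325) at 120 h. Its log2 fold change was 5.50 ± 0.18 (SE, adjusted p = 5.9e-12), with no overlap between the times. Tbx18 shares 20.6% of its exonic bases with a transcript on the opposite strand, and the strand used for counting is not given in the sources used here.

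By the same rule, the 15 largest falls were those of Sprr2a3, Msgn1, Dkk4, Mixl1, Cpxm2, Trim67, Scn9a, Alox15, S1pr5, Wnt10a, Avpr1b, Fgf3, Wnt3a, Wnt6 and Tbx6, between −7.05 and −3.83 on the log2 scale. They comprised 3 Wnt ligands, the Wnt antagonist Dkk4, an FGF ligand and the transcription factors Mixl1, Msgn1 and Tbx6 of the primitive streak and presomitic mesoderm. Sprr2a3 belongs to a family of near-identical small proline-rich genes between which reads could have been split, and its value is uncertain. Among the receptors and channels, the sphingosine-1-phosphate receptor S1pr5 had a log2 fold change of −4.36 ± 0.17, the vasopressin receptor Avpr1b of −4.22 ± 0.19 and the sodium channel Scn9a of −4.48 ± 0.23. The lipoxygenase gene Alox15 was at 4187 to 6495 (median 5227) normalized counts at 96 h and at 192 to 353 (median 253) at 120 h, and the times did not overlap.

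Genes of the caudal progenitor pool fell together. None of the 12 tested rose and 10 fell, with a median log2 fold change of −1.55 against −0.02 over all genes, and 9 of the 12 had no overlap between times, against 32.1% of all genes. T is not among these 12 and is counted in the primitive streak list below. T was at 25918, 29724 and 26774 normalized counts in the 3 WT–mCherry libraries at 96 h and at 2420.4, 1972 and 2203 at 120 h. In the WT–emiRFP libraries T was at 22714, 26873 and 21593 and then at 1866, 1442 and 1461. Every library at 96 h was far above every library at 120 h, and the log2 fold change was −3.77 ± 0.09 (SE, adjusted p = 3.9e-13), a 13.6-fold lower level at 120 h. Wnt3a, the Wnt ligand of the tailbud, was at 5616 to 7099 (median 6607) normalized counts at 96 h and at 319.8 to 546 (median 396) at 120 h, a log2 fold change of −4.02 ± 0.09 (SE, adjusted p = 1.9e-13). Sp5, a transcription factor induced by Wnt, changed from 5888 to 8259 (median 7733) to 590.2 to 861 (median 650), with a log2 fold change of −3.43 ± 0.10 (SE, adjusted p = 1.7e-12). Neither gene overlapped between the times.

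Wnt8a (−2.83 on the log2 scale), the neuromesodermal progenitor homeobox gene Nkx1-2 (−2.31), Sp8 (−1.47) and the caudal homeobox genes Cdx1 (−2.80) and Cdx2 (−1.62) also fell without overlap. The third gene of that homeobox family did not pass the test: Cdx4 was at 2017 to 4317 (median 2798) normalized counts at 96 h and at 1326 to 3477 (median 2142) at 120 h (log2 fold change −0.42 ± 0.19 (SE, adjusted p = 0.072)), and the ranges overlapped. The smallest falls in the list were those of Cyp26a1, which degrades retinoic acid (−0.56), Fgf17 (−0.76) and Hes3 (−0.76). Gdf11, a ligand that acts on the trunk-to-tail transition, had a log2 fold change of 0.09 ± 0.15 (SE, adjusted p = 0.65).

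Genes of the primitive streak were divided. Of 12, 7 fell and 2 rose, with a median of −1.35. Mixl1, a homeobox gene of nascent mesendoderm, was at 1221 to 1855 (median 1499) normalized counts at 96 h and at 29.1 to 43.1 (median 36.2) at 120 h (log2 fold change −5.39 ± 0.13 (SE, adjusted p = 3.9e-13)). Evx1 (−3.19), Fgf8 (−2.56), Snai1 (−1.62), Wnt3 (−1.46), Lefty2 (−1.24) and T, given above, fell too. The members that rose were Cer1 and Eomes, a T-box factor of early mesendoderm. Cer1 was at 1.14, 1.83 and 1.82 normalized counts in WT–mCherry cells and 2.67, 9.53 and 0 in WT–emiRFP cells at 96 h. At 120 h it was at 554, 390.5 and 413 and 358, 326 and 263, so that the gene was close to the detection limit in all 6 earlier libraries and well above it in all 6 later ones. Eomes went from 301 to 407 (median 351) to 468 to 1008 (median 746), a log2 fold change of 1.05 ± 0.10 (SE, adjusted p = 6.8e-07). Cer1 is also expressed in forming somites.

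In the presomitic mesoderm list all 12 genes changed, 8 downwards and 4 upwards. Msgn1, the basic helix-loop-helix factor of the posterior presomitic mesoderm, was at 6592, 7199.8 and 7822 normalized counts in WT–mCherry cells and 7711, 9212 and 8437 in WT–emiRFP cells at 96 h. At 120 h it was at 205, 109.7 and 104 and at 90.3, 55.2 and 52.7. The lowest library at 96 h was thus still far above the highest at 120 h, and the log2 fold change of −6.26 ± 0.22 (SE, adjusted p = 1.2e-11) corresponded to a 76.5-fold lower level. Tbx6, which directs cells to the paraxial mesoderm, was at 6643 to 9775 (median 8447) at 96 h and at 378 to 879 (median 594) at 120 h (log2 fold change −3.83 ± 0.19 (SE, adjusted p = 3.3e-10)). The Wnt amplifier Rspo3 (−2.88), the oscillating repressor Hes7 (−2.56), the Notch ligands Dll1 (−1.94) and Dll3 (−2.14), and the Notch-regulated genes Nrarp (−1.15) and Lfng (−0.76) fell as well, Lfng with overlapping ranges. Exonic bases of Nrarp and Dll1 are shared with opposite-strand transcripts to 79.4% and 20.5%.

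The 4 members that rose, Ripply2, Mesp2, Pcdh8 and Ripply1, are expressed where the somite boundary forms. Mesp2 was at 54.9, 56 and 37.4 normalized counts in WT–mCherry cells and 71.1, 68.7 and 64.8 in WT–emiRFP cells at 96 h, and at 497, 526 and 429.8 and 332, 337 and 285 at 120 h. All 6 later libraries were above all 6 earlier ones, with a log2 fold change of 2.74 ± 0.18 (SE, adjusted p = 6.6e-09). Ripply2, a repressor that ends Mesp2 expression, had a log2 fold change of 4.52 ± 0.26 (SE, adjusted p = 2.4e-09), from 1.91 to 8.89 (median 6.28) to 79.5 to 212 (median 135) normalized counts. The protocadherin gene Pcdh8 (2.30) and Ripply1 (2.27) rose without overlap. The related streak gene Mesp1 did not pass (log2 fold change 0.23 ± 0.19 (SE, adjusted p = 0.33)).

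The promoters of the presomitic and caudal genes with the TCF/LEF motif are shown because Wnt ligands and Wnt target genes fell in the same cells. The motif CTTTGAT was searched on both strands in the 300 bases around each gene start (250 before and 50 after) as RefSeq gives them on GRCm38.p6. It was in the window of Msgn1 among 11 presomitic mesoderm genes with a window, of Sp5 among 8 caudal genes and of Wnt5b and Wnt11 among 14 Wnt ligands. The motif was also held by Mesp1 among 9 primitive streak genes and by Car9 among 12 hypoxia genes. Mesp1 did not pass and Car9 rose. Over all 27025 genes with a window 4.29% held it, and 3.16% of the 12869 tested ones. The T-box letters TCACACCT were in none of the windows of caudal, presomitic or somite genes and in 1.48% of all. A match describes the letters and does not show a binding site. Both windows lie mostly upstream of the first base of the gene, 5′ to 3′ on the gene's strand, with the motif (for Msgn1 its reverse complement) in capitals. The Msgn1 window is chr12:11208899-11209198 and the Sp5 window chr2:70474673-70474972.
Msgn1: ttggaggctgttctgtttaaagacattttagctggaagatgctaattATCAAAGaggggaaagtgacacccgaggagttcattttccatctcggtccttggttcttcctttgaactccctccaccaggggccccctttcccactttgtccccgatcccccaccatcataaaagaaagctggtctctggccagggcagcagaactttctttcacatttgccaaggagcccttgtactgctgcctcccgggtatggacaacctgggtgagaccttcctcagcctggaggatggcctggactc
Sp5: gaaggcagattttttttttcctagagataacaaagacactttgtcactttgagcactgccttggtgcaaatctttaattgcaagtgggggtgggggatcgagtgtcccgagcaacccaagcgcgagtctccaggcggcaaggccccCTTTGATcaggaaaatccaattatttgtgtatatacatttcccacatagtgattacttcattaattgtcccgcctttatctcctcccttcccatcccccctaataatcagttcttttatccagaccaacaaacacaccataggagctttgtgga

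Somite genes rose. Of 14 tested, 12 rose and none fell, the median log2 fold change was 2.36, and 11 of the 14 had no overlap between times, against 32.1% of all genes. Uncx, the homeobox gene of the posterior part of each somite, was at 8.01, 11 and 4.56 normalized counts in WT–mCherry cells and at 8, 9.53 and 8.23 in WT–emiRFP cells at 96 h. At 120 h it was at 659.8, 476 and 705 and 756, 545 and 815. The gene was near 0 in every library of 96 h and well above that level in every library of 120 h, with a log2 fold change of 6.31 ± 0.18 (SE, adjusted p = 2.7e-12). Meox1, a homeobox gene of all somites, was already detected in every library at 96 h, at 550.4 to 802 (median 651), and reached 7067 to 10964 (median 9622) at 120 h (log2 fold change 3.79 ± 0.13 (SE, adjusted p = 7.2e-12)). Pax3, of the dermomyotome, changed from 67.9 to 141 (median 116) to 1699 to 2977 (median 2495), with a log2 fold change of 4.46 ± 0.18 (SE, adjusted p = 6.5e-11). In none of the 3 genes did the times overlap.

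The sclerotome genes Pax9 (3.95) and Pax1 (3.80) rose to medians of 91.9 and 92.2 normalized counts, and Nkx3-2, which follows them, from 0.912 to 6.67 (median 2.41) to 5.62 to 20.3 (median 13.1) (2.08). Tcf15 (2.52), a factor of somite epithelium, the transcriptional co-activator Eya1 (2.20) and the forkhead factor Foxc2 (1.39) rose as well. The 2 members that did not pass were Foxc1 (log2 fold change 0.00 ± 0.17 (SE, adjusted p = 0.99)) and the muscle determination gene Myf5, at 29.8 to 45.3 (median 37.8) normalized counts at 96 h and 22.3 to 46.8 (median 28.2) at 120 h (log2 fold change −0.31 ± 0.18 (SE, adjusted p = 0.16)).

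**Figure D2:**
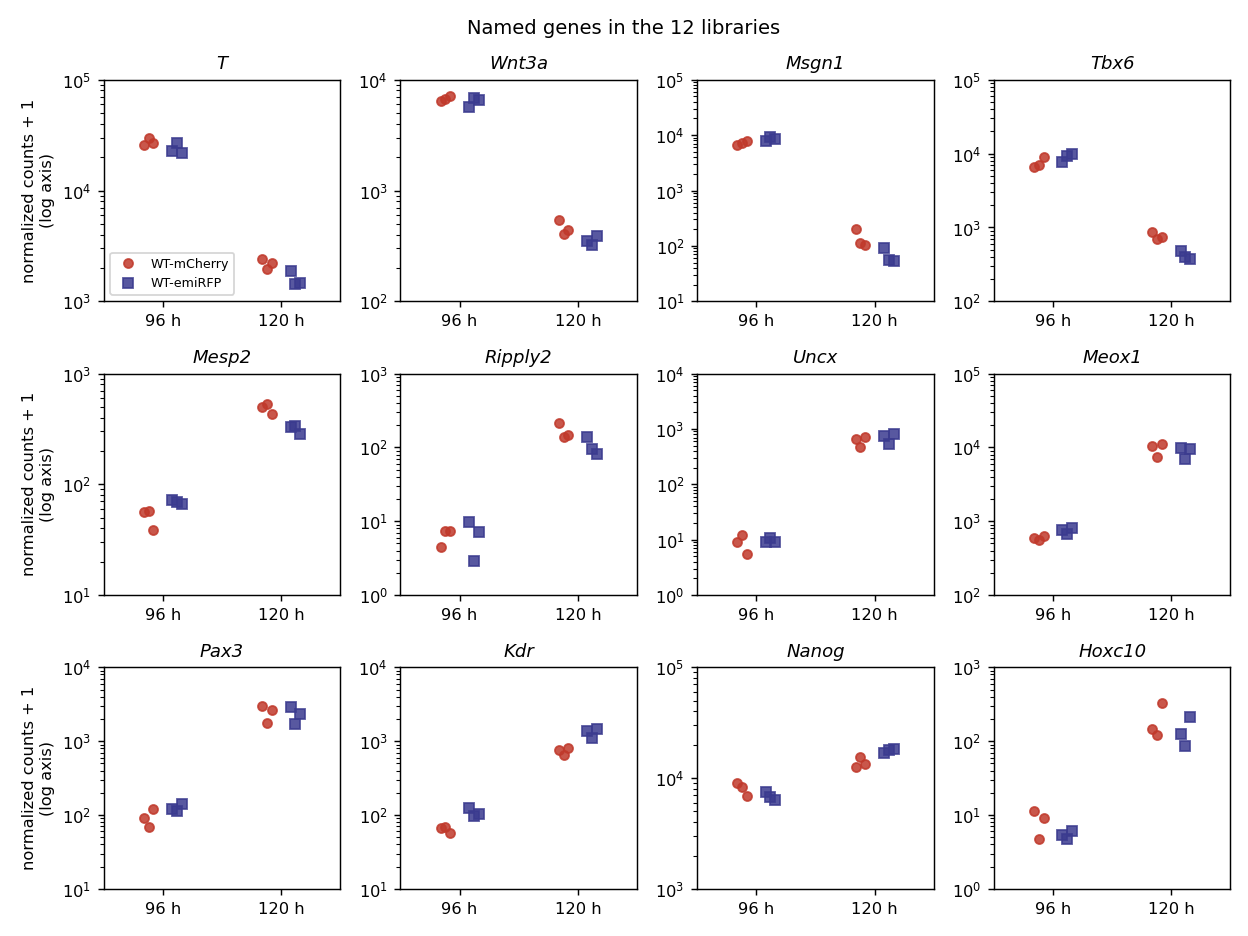
Normalized counts + 1 (y axis, log scale) of 12 genes in each of the 12 libraries at 96 h and 120 h, with 1 point a library and the 2 clones in separate colours. T, Wnt3a, Msgn1 and Tbx6 are lower in all 6 libraries of 120 h than in all 6 of 96 h, and the other 8 genes (Mesp2, Ripply2, Uncx, Meox1, Pax3, Kdr, Nanog and Hoxc10) are higher in all 6.

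Of 33 Hox genes tested, 9 rose, 11 fell and 13 did not pass. Among paralogue groups 1 to 5, 0 of 15 rose and 8 fell (median −0.41), among groups 6 to 10, 8 of 14 rose and 2 fell (median 0.76), and among groups 11 to 13, 1 of 4 rose and 1 fell (median −0.17). Hoxb1, one of the earliest genes of its cluster, was at 8647 to 10832 (median 9423) normalized counts at 96 h and at 2066 to 3646 (median 2779) at 120 h (log2 fold change −1.78 ± 0.09 (SE, adjusted p = 7.7e-10)). Hoxc10 was at 3.67 to 10.3 (median 4.8) and then at 85.3 to 325 (median 136) (log2 fold change 4.84 ± 0.37 (SE, adjusted p = 4.7e-08)), and Hoxa10 at 40.9 to 71.2 (median 44.3) and then at 172 to 456 (median 249) (log2 fold change 2.50 ± 0.22 (SE, adjusted p = 1.7e-07)). For these 3 genes the 6 libraries of one time lay wholly on one side of those of the other.

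Hoxa9 (2.09), Hoxc9 (2.07) and Hoxa6 (1.59) rose without overlap, and Hoxc6, Hoxa7 and Hoxd8 rose by 0.56 to 0.98 on the log2 scale. In the Hoxb cluster 6 of 10 genes fell, Hoxb8 (−0.62) and Hoxb6 (−0.61) among them, and only Hoxb13 (0.55) rose. Hoxd13 fell from 56.9 to 80.3 (median 65.7) to 15.8 to 22 (median 19.5) normalized counts (log2 fold change −1.77 ± 0.13 (SE, adjusted p = 3.4e-08)). Hoxb3, Hoxd3 and Hoxd4, none of which passed, share over 50% of their exonic bases with neighbouring or antisense transcripts, Hoxb2 27.3% and Hoxa3 27.1%, so reads of these genes could have been counted elsewhere.

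**Figure D3:**
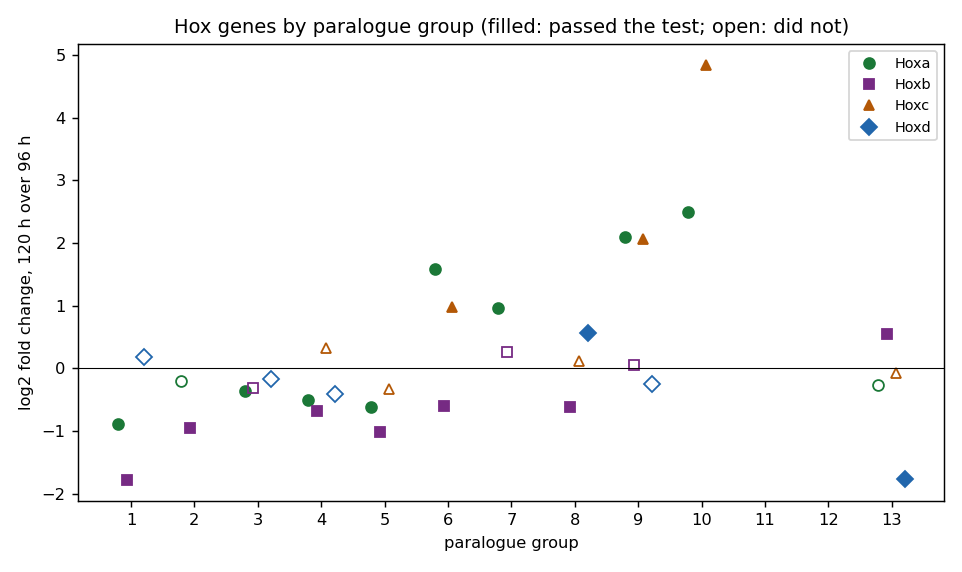
Log2 fold change from 96 h to 120 h (y axis) of the 33 tested Hox genes by paralogue group (x axis), in separate colours for the Hoxa, Hoxb, Hoxc and Hoxd clusters, filled where the gene passed the test and open where it did not. No gene of groups 1 to 5 rose, 8 of 14 genes of groups 6 to 10 did, and Hoxc10 is the highest at 4.84.

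Wnt signalling genes fell at the level of ligands, targets and inhibitors. Of 18 Wnt ligands, 12 fell and 4 rose (median −1.28). Besides Wnt3a, Wnt3 and Wnt8a, the canonical ligands Wnt2 (−4.33), Wnt6 (−3.95), Wnt8b (−2.61) and Wnt10a (−4.32) fell, as did the ligands of polarized movement Wnt5a (−0.47) and Wnt5b (−2.62). Wnt7b was at 48.9 to 79.8 (median 62.8) normalized counts at 96 h and at 568 to 906 (median 799) at 120 h (log2 fold change 3.61 ± 0.15 (SE, adjusted p = 4.9e-11)), and Wnt16 at 10.5 to 25.5 (median 15.8) and then at 124 to 213 (median 181) (log2 fold change 3.36 ± 0.20 (SE, adjusted p = 3.3e-09)). Both were higher in all later libraries. None of the 12 Wnt targets and feedback genes rose, and 11 fell (median −1.23).

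Axin2, a feedback inhibitor that reads out the pathway in many tissues, was at 9027 to 10662 (median 9637) normalized counts at 96 h and at 3851 to 4397 (median 4035) at 120 h, a log2 fold change of −1.27 ± 0.05 (SE, adjusted p = 1.3e-11). The transcription factor genes Lef1 (−1.27) and Tcf7 (−0.79) and the inhibitors Nkd1 (−1.33), Notum (−1.19), Dkk1 (−3.20) and Dkk4 (−5.84) fell. The ubiquitin ligase gene Znrf3 fell by 0.27 on the log2 scale and its partner Rnf43 did not pass (−0.24 ± 0.10 (SE, adjusted p = 0.059)).

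Of 13 FGF ligands and receptors 8 fell and 2 rose (median −0.52). Among the ligands Fgf5 and Fgf9 did not pass. Fgf3, Fgf4, Fgf8, Fgf10, Fgf15 and Fgf17 fell, Fgf15 with a log2 fold change of −3.02 ± 0.09 and Fgf8 with one of −2.56 ± 0.12. Fgfr1, the main receptor of early mesoderm, was at 14833 to 17219 (median 15452) normalized counts at 96 h and at 9867 to 12177 (median 11314) at 120 h (log2 fold change −0.50 ± 0.06 (SE, adjusted p = 2.5e-06)). Fgfr2 moved the other way, from 341 to 420 (median 394) to 2019.7 to 2374 (median 2232) (log2 fold change 2.51 ± 0.05 (SE, adjusted p = 5.4e-14)), and neither receptor overlapped between times. Fgf18, a ligand of paraxial mesoderm derivatives, rose (2.08). Of 12 feedback genes induced by ERK, the kinase downstream of FGF receptors, 10 fell and 2 rose (median −0.77). Spry4 fell from 4439 to 6531 (median 5575) to 1153 to 1464 (median 1294) normalized counts (−2.11), Etv4 (−1.02), Dusp4 (−0.93) and Il17rd (−0.88) fell by less, and Dusp6 (−0.33) and Etv5 (−0.19) by least. Spry1 (1.01) and Dusp5 (0.88) rose.

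Retinoic acid genes moved in both directions. Aldh1a2, the enzyme that makes retinoic acid in the trunk, was at 7388, 5834 and 7619 normalized counts in WT–mCherry cells and 9698, 9192 and 10394 in WT–emiRFP cells at 96 h. At 120 h it was at 2549, 2099.7 and 1596 and 1992, 1679 and 1254, below all earlier libraries (log2 fold change −2.15 ± 0.16 (SE, adjusted p = 4.3e-08)). The binding proteins Crabp1 (−1.67) and Crabp2 (−0.65) fell, and so did the receptor Rarg (−0.36). Cyp26b1, a degrading enzyme, rose from 20.4 to 36 (median 24.7) to 88 to 138 (median 107) (2.06), and the receptor Rarb rose (1.11), although 38.4% of its exonic bases lie in transcripts of the opposite strand. In all, 6 of 14 genes fell and 4 rose, against 28.3% and 26.8% of all genes. The number that rose was 2 when any 1 replicate number was left out and in WT–mCherry cells alone.

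Nodal, the ligand of mesendoderm induction, did not pass: it was at 1968 to 2856 (median 2467) normalized counts at 96 h and at 1978 to 2738 (median 2416) at 120 h (log2 fold change −0.05 ± 0.08 (SE, adjusted p = 0.61)). Its feedback antagonists Lefty1 (−0.77) and Lefty2 and its nuclear partner Foxh1 (−0.84) fell, and the co-receptor Tdgf1 (0.68) and the ligand Gdf3 (0.61) rose. Among 15 BMP pathway genes 8 rose and 6 fell. Id2 was at 321 to 438 (median 366) normalized counts at 96 h and at 1886 to 2584 (median 2253) at 120 h (log2 fold change 2.58 ± 0.09 (SE, adjusted p = 1.3e-11)), and Smad7 (0.99), Smad6 (0.69) and Id4 (0.72) rose with it. Id1 went the other way, from 1297 to 1732 (median 1498) to 529.6 to 835 (median 636) (−1.21 ± 0.11 (SE, adjusted p = 1.8e-07)), so that the inhibitors of differentiation of the Id family, all of them known BMP targets, did not move as a group. The ligands Bmp2 (0.71) and Bmp5 (0.91) rose and Bmp4 (−0.54) and Bmp7 (−0.20) fell. Grem1, an extracellular BMP antagonist, rose from 1.03 to 5.72 (median 3.15) to 7.91 to 28.1 (median 22.5) normalized counts.

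Of 12 Notch pathway genes 5 rose and 4 fell, against 26.8% and 28.3% of all genes, and the falls numbered 0 of 12 in WT–mCherry libraries alone and 6 of 12 in WT–emiRFP libraries alone. Over all genes, 3060 of 17952 fell in the first of these fits and 4259 of 18004 in the second. Heyl was at 50.5 to 96.9 (median 80.4) normalized counts at 96 h and at 250.1 to 509 (median 466) at 120 h (log2 fold change 2.47 ± 0.19 (SE, adjusted p = 4.3e-08)), and Hey1 (1.26), the ligand Dll4 (2.73) and the receptor Notch2 (0.61) rose. Notch1 (−0.55) and Notch3 (−0.28) fell with overlapping ranges. Of 11 Hedgehog pathway genes 7 rose and 1 fell (median 0.81). The co-receptors Boc (1.50), Gas1 (1.30) and Cdon (1.24), the activator Gli2 (0.81) and the receptor and target Ptch1 (0.40) rose, as did the target Hhip, from 17.5 to 27.5 (median 19.2) to 87 to 175 (median 130.1) (2.54). The target Gli1, whose transcription is a usual readout of the pathway, did not pass (0.04 ± 0.13 (SE, adjusted p = 0.81)), and the transducer Smo fell (−0.38). Shh, the ligand of notochord and floor plate, had too few counts to be tested.

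Genes of blood and endothelial progenitors rose in 14 of 17 cases, with 1 fall and a median of 1.23, against 26.8% of all genes that rose. Kdr, the receptor of vascular endothelial growth factor, was at 65.2, 68.8 and 56.6 normalized counts in WT–mCherry cells and at 124, 96.3 and 101 in WT–emiRFP cells at 96 h, and at 748, 651 and 798 and 1361, 1104 and 1461 at 120 h. The times were far apart in both clones, and the log2 fold change was 3.57 ± 0.10 (SE, adjusted p = 1.7e-12). Gata2 rose from 55 to 102 (median 81.2) to 467 to 839 (median 703) (3.03), and the factors Tal1 (2.03), Fli1 (1.95), Runx1 (1.71) and Etv2 (1.13) rose without overlap. Lmo2, a partner of Tal1, was the exception: it was at 2361 to 4474 (median 3283) normalized counts at 96 h and at 503 to 809 (median 698) at 120 h (log2 fold change −2.25 ± 0.13 (SE, adjusted p = 2.6e-09)). The endothelial cadherin Cdh5 did not pass (0.09 ± 0.24 (SE, adjusted p = 0.79)), and the embryonic globins Hbb-y, Hbb-bh1 and Hba-x had too few counts to be tested, with 3 counts of Hbb-y in all at 96 h and 5 at 120 h. Pecam1, which pluripotent cells express too, rose (1.25).

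Neural progenitor genes rose in 11 of 15 cases and fell in 2 (median 1.75). Sox1, an early gene of the neural plate, was at 125 to 205 (median 158) normalized counts at 96 h and at 490.4 to 913 (median 737) at 120 h (log2 fold change 2.10 ± 0.08 (SE, adjusted p = 4.6e-11)). Irx3, a homeobox gene of the spinal cord, rose from 112 to 171 (median 139) to 692 to 1210.2 (median 911) (2.75), and Pax6 from 94.4 to 138 (median 109) to 317 to 418 (median 379) (1.75). All 3 genes were higher in every library at 120 h. Sox21 (2.19), Pou3f2 (2.59), Irx5 (1.96), Olig2 (3.74) and Sox2 (0.72) also rose. Dbx1, of the intermediate spinal cord, had 2 counts in all at 96 h and 171 at 120 h, and the counting interval of the ratio after normalization was 22.6 to 691, which, as for the other intervals of this kind, is the exact binomial one on the summed reads, covers counting error only and leaves out the spread between libraries. The proneural gene Neurog2 fell from 22.6 to 34.7 (median 29.3) to 8.32 to 15.9 (median 11.6) (−1.32). Neuronal genes gave no common direction, with 2 of 10 higher and 4 lower: Tubb3 (0.94) and Elavl3 (0.81) rose, and Dcx (−1.95), Map2 (−0.59), Stmn2 (−0.58) and Neurod1 (−0.55) fell.

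Other lineages moved less as groups. In the endoderm and notochord list 7 of 14 rose and 4 fell, against 26.8% and 28.3% of all genes. Hnf4a was at 7.21 to 17.3 (median 11.7) normalized counts at 96 h and at 18.5 to 46.5 (median 34.3) at 120 h (log2 fold change 1.39 ± 0.23 (SE, adjusted p = 0.00011)), and Cpn1 (1.80) and Cldn6 (1.04) rose, while the node and notochord genes Noto (−3.76), Foxa2 (−1.02) and Chrd (−0.36) fell. The intermediate mesoderm list held 3 rises and 3 falls. Wt1 rose from 37.4 to 69.3 (median 48.8) to 219 to 401 (median 307) (2.63), Gata3 rose (2.55) and Lhx1 fell from 1758 to 2595 (median 2088) to 276 to 416 (median 379) (−2.55). Of 16 lateral plate and cardiac genes 6 rose and 2 fell, with the same shares of all genes. Gata6 rose (1.40), Isl1 fell (−1.21), and Hand1, Gata4, Foxf1, Nkx2-5 and Tnnt2 did not pass.

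Anterior neural genes had 3 rises and 3 falls of 7 tested, with Gbx2 (−1.79), an early posterior neural gene that shares 43.5% of its exonic bases with an opposite-strand transcript, the deepest and Lmx1b (1.37) among the rises. Six3, Rax and Fezf1 of the forebrain had too few counts. Of 8 neural crest genes 3 rose and 2 fell, against 26.8% and 28.3% of all genes. Msx2 (1.49), Ets1 (1.19) and Pax7 (0.86) rose, Msx1 (−1.19) and Sox9 (−1.06) fell, and Sox10, the defining gene of migrating crest, stayed at 24 to 58.2 (median 33.3) and 13.1 to 42.6 (median 35.9) normalized counts without passing. In the epithelial list 6 of 12 rose and 2 fell, although 2 rose in WT–mCherry libraries alone, with Cldn4 at 1640.1 to 2064 (median 1886) at 96 h and 4339 to 7038 (median 5878) at 120 h (1.61 ± 0.11 (SE, adjusted p = 1.2e-08)) and Cdh1, the epithelial cadherin, not passing (−0.17 ± 0.09 (SE, adjusted p = 0.11)).

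Genes of extraembryonic tissues were tested as markers of other cells that an aggregate could hold. Of 8 trophoblast genes 5 were tested and 4 rose, and their summed level was 204 to 273 normalized counts per library at 96 h and 534 to 727 at 120 h. Elf5 rose from 9.53 to 23.7 (median 17.3) to 138 to 229.9 (median 181) (3.42), and Rhox4b had 2 counts in all at 96 h and 124 at 120 h, a ratio of 60.2 with a counting interval of 16.3 to 502. The placental genes Tpbpa, Prl3d1 and Prl2c2 had too few counts to be tested, and Tpbpa had 20 counts in all at 96 h and 1 at 120 h, without a test across libraries. All 4 extraembryonic endoderm genes tested rose, Cubn, Apob, Amn and Lgmn, each with overlapping ranges, and their sum was at 1894 to 2759 at 96 h and at 2419 to 3818 at 120 h. The defining genes Afp, Ttr, Apoa1 and Fgb had too few counts to be tested, with 6 counts of Afp in all at 96 h and 2 at 120 h. The part of such cells in the changes above was not tested.

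Genes of naive pluripotency, the state of mES cells before aggregation, rose between these times. All 12 passed the test, 10 of them upwards, and the median was 0.88. Nanog was at 9058, 8355 and 6843 normalized counts in WT–mCherry cells and at 7429, 6787 and 6372 in WT–emiRFP cells at 96 h, and at 12587, 15372 and 13279.9 and 16813, 17924 and 18309 at 120 h. No library at 96 h reached the lowest one of 120 h, with a log2 fold change of 1.07 ± 0.10 (SE, adjusted p = 5.8e-07). Zfp42 (Rex1) was at 5531 to 7243 (median 6292) and then at 10032 to 14350 (median 12356) (log2 fold change 0.93 ± 0.09 (SE, adjusted p = 4.6e-07)), Tcl1 at 220.3 to 383 (median 271) and then at 687 to 1024 (median 876) (log2 fold change 1.52 ± 0.14 (SE, adjusted p = 2.9e-07)). Klf4 (1.34), Tbx3 (1.03), Tfcp2l1 (1.02), Esrrb (0.82) and Klf2 (0.63) rose, and Fgf4 (−1.16) and Klf5 (−0.51) fell. Pou5f1 (Oct4), which all pluripotent states share, did not pass: it was at 9535 to 16034 (median 11549) and 8264 to 11910.3 (median 9965) normalized counts (log2 fold change −0.30 ± 0.12 (SE, adjusted p = 0.056)).

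Genes of formative and primed pluripotency gave 4 rises and 2 falls of 11. Otx2 (0.79), Tdgf1, Utf1 (0.58) and L1td1 (0.49) rose, Lin28a (−0.64) and the methyltransferase gene Dnmt3b (−0.49) fell, and Fgf5, the usual marker of the formative state, did not pass (0.20 ± 0.17 (SE, adjusted p = 0.35)). Of 10 genes of primordial germ cells 9 rose and none fell (median 1.02). Prdm14 was at 199 to 294 (median 278) normalized counts at 96 h and at 477 to 750.1 (median 594) at 120 h (log2 fold change 1.21 ± 0.11 (SE, adjusted p = 4.2e-07)), and Prdm1, the factor that specifies these cells, at 328 to 369.6 (median 346) and then at 709 to 979.8 (median 846) (log2 fold change 1.27 ± 0.07 (SE, adjusted p = 1e-09)). Both were higher in all later libraries. Dazl (1.75), Itgb3 (1.78), Tfap2c (1.06), Dppa3 (0.98) and Kit (0.89) rose without overlap. Several of these genes, Prdm14 and Tfap2c among them, are also expressed by pluripotent cells. Dnmt3l (1.03), Tet2 (0.86) and Tet1 (0.45) rose among 8 genes of DNA methylation and its removal.

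Matrix genes rose more often than they fell, 17 against 7 of 28 (median 0.88). Col26a1 was at 116 to 169.8 (median 136) normalized counts at 96 h and at 1739 to 2947 (median 2616) at 120 h (log2 fold change 4.14 ± 0.13 (SE, adjusted p = 3.7e-12)). The cartilage and sclerotome collagens Col2a1 (2.49), Col9a2 (2.90) and Col9a1 (1.28), the fibrillin Fbn2 (2.47), the link protein Hapln1 (2.41) and the basement membrane chains Col18a1 (1.27), Col4a1 (0.83) and Col4a2 (0.95) rose. The laminin chains Lama1 (−0.82) and Lamb1 (−0.58) fell while Lamc1 (0.23) rose. Fn1, which encodes fibronectin, fell from 66192 to 140765 (median 97952) to 43354 to 56432 (median 46462) (log2 fold change −0.99 ± 0.10 (SE, adjusted p = 9.8e-07)) with no overlap. Of 12 genes of cadherin switching and epithelial-to-mesenchymal transition 6 fell and 3 rose. Snai1 and Vim (−1.04) fell, Twist1 (1.06), Prrx1 (1.36) and Cdh11 (1.35) rose, and N-cadherin (Cdh2, −0.50) fell with overlapping ranges.

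Genes induced by low oxygen rose in 12 of 14 cases and fell in 1 (median 0.74). Bnip3, a mitophagy receptor, was at 739.8 to 1027 (median 885) normalized counts at 96 h and at 1987 to 2805 (median 2534) at 120 h (log2 fold change 1.47 ± 0.09 (SE, adjusted p = 5.9e-09)). Ndrg1 was at 300.1 to 436 (median 375) and then at 855 to 1407 (median 1201) (log2 fold change 1.63 ± 0.09 (SE, adjusted p = 1.9e-09)), with no overlap for either gene. Ankrd37 (1.25), the collagen hydroxylase P4ha1 (1.07), the oxidase Ero1l (1.06), Vegfa (0.98) and the oxygen sensors Egln1 (0.80) and Egln3 (0.68) rose. Adm, a vasodilator peptide gene and a frequent hypoxia marker, fell (−1.53), and Pdk1 did not pass (0.10 ± 0.06 (SE, adjusted p = 0.15)). Of 19 glycolysis genes 14 rose and none fell (median 0.43). Pfkp, a phosphofructokinase, went from 1799 to 2628 (median 2370.3) to 6192 to 8985 (median 7456) (log2 fold change 1.71 ± 0.09 (SE, adjusted p = 7.6e-10)), hexokinase Hk1 from 1258 to 1532 (median 1359) to 3080.2 to 3768 (median 3314) (log2 fold change 1.32 ± 0.04 (SE, adjusted p = 7.2e-12)) and the lactate exporter Slc16a3 from 2048 to 2777 (median 2335) to 4304 to 6386 (median 5426) (log2 fold change 1.19 ± 0.09 (SE, adjusted p = 6.2e-08)). The glucose transporter Slc2a3 rose (0.86) and Slc2a1 did not pass (−0.14 ± 0.07 (SE, adjusted p = 0.1)), nor did Gapdh (0.04 ± 0.05 (SE, adjusted p = 0.46)), Ldha (0.09 ± 0.05 (SE, adjusted p = 0.11)) or Eno1 (−0.10 ± 0.05 (SE, adjusted p = 0.14)).

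The promoters of 4 of these genes are shown because they hold the core of the hypoxia response element, ACGTG, 2 times each in 300 bases. Counted on both strands, it was present for 9 of 12 hypoxia genes with a window (75.0%) and 13 of 18 glycolysis genes (72.2%), and also for 4 of 8 genes of the caudal list (50.0%), in which 10 of 12 genes fell, against 21.8% of all 27025 genes with a window and 28.0% of the 12869 tested. The glycolysis genes that hold it include Gapdh, Ldha, Slc2a1 and Pfkm, which did not pass. The windows are RefSeq promoters on GRCm38.p6, 5′ to 3′ on the gene's strand, with the motif or its reverse complement in capitals, where CACGTG holds the motif on both strands at once. They lie at chr7:138909457-138909756, chr8:45999801-46000100, chr10:62340372-62340671 and chr11:120948817-120949116.
Bnip3: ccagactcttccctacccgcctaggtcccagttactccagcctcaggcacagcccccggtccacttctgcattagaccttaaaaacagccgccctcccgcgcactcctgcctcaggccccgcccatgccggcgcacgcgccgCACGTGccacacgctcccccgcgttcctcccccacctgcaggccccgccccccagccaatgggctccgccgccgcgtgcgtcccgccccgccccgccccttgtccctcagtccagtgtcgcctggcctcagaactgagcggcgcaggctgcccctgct
Ankrd37: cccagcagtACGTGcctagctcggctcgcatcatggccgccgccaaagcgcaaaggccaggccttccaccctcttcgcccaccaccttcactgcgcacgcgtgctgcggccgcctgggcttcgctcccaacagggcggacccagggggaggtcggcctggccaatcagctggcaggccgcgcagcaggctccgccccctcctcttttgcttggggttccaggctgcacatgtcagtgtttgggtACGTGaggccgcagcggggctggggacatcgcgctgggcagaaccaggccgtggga
Hk1: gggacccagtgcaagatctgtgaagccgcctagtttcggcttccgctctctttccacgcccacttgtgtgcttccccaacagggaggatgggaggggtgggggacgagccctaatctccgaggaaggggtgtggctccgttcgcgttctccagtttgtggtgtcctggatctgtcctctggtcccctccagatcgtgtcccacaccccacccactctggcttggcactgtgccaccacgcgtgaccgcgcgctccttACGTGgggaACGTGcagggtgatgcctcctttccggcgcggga
Slc16a3: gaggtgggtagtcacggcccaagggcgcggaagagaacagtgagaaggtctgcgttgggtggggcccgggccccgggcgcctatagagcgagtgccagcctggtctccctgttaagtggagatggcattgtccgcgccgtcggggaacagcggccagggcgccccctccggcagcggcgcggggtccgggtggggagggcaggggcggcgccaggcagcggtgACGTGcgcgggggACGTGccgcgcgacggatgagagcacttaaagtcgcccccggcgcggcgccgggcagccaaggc

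Genes of cholesterol synthesis and its regulation rose in 18 of 20 cases with none falling, by small amounts (median 0.48, highest 0.71). Hmgcs1 was at 12032 to 15776 (median 13644) normalized counts at 96 h and at 18374 to 22155 (median 20888) at 120 h (log2 fold change 0.58 ± 0.05 (SE, adjusted p = 2.3e-07)). The squalene epoxidase gene Sqle (0.53) also rose, and 15 of the 20 genes had no overlap, against 32.1% of all genes. Of the sterol-regulatory motif TCACNCCAC, searched in the same way, 1 of 12 genes with a window, Hmgcs1, held a copy, fewer than the 2 of 18 glycolysis genes (Aldoc and Pkm), against 1.44% of all genes. Genes of the integrated stress response gave 8 rises of 14 and no fall (median 0.31), with Nupr1 (1.17), Chac1 (1.07) and Trib3 (0.78) at the top and Ddit3 not passing (0.25 ± 0.10 (SE, adjusted p = 0.053)). The motif TTGCATCA was in the windows of 4 of the 14, Chac1, Slc7a11, Vldlr and Nupr1 (28.6%, against 1.03% of all genes).

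Nuclear genes of oxidative phosphorylation fell in 32 of 42 cases and none rose, again by little (median −0.17). The deepest were Cox7a2, from 8919 to 10233 (median 9289) to 5317 to 6030.3 (median 5764) normalized counts (−0.73), Ndufb2 (−0.46) and Ndufa4 (−0.38). With TMM scaling 28 of the 42 fell, and in WT–emiRFP libraries alone 17 fell and 1 rose. Of 12 mitochondrially encoded genes, mt-Nd1 (−0.27) and mt-Nd2 (−0.34) passed as lower and the others did not pass, and without replicate 2 of 120 h none of the 12 passed. The number that fell ranged from 0 to 7 over the alternatives run. Genes of ribosome biogenesis fell in 16 of 23 cases and rose in 1 (median −0.15), Rrp1b (−0.35) and Nolc1 (−0.32) deepest. Of 78 cytosolic ribosomal protein genes 21 fell and none rose, with a median of −0.10. That count was 3 in each clone alone, 7 with clones summed per pool, 11 with TMM scaling, 39 without replicate 2 of 120 h and 38 with the replicate block, under which 6149 of all 18749 genes fell, and many of these genes have processed pseudogenes that can take their reads.

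Of 24 p53 target genes, which p53 induces after stress, 16 fell and 2 rose (median −0.24). Cdkn1a (p21) was at 4903 to 6114 (median 5858) normalized counts at 96 h and at 2613 to 3673 (median 3379) at 120 h (log2 fold change −0.83 ± 0.06 (SE, adjusted p = 5.2e-08)). The antiproliferative gene Btg2 fell by 1.05, the pro-apoptotic Pmaip1 by 0.93, Perp by 0.92 and Phlda3 by 0.70 on the log2 scale, and none of them overlapped. Mdm2 (0.08 ± 0.05 (SE, adjusted p = 0.17)), Bax (−0.11 ± 0.05 (SE, adjusted p = 0.1)) and Bbc3 (−0.15 ± 0.07 (SE, adjusted p = 0.091)) did not pass, and Rrm2b (0.56) and Gdf15 (0.78) rose. Fas, the death receptor, was low at both times, at 35.5 to 52.4 (median 47.7) and 24.3 to 36.1 (median 31.2) normalized counts (−0.61). In p53KO–emiRFP cells 8 of the 24 genes rose and 7 fell between the same times (median 0.12), against 24% and 20.2% of all genes. Cdkn1a (−2.01), Pmaip1 (−1.41) and Perp (−1.14) fell there too, whereas Btg2 rose (1.02) and Phlda3 did not pass (0.01). Whether p53 activity changed was not tested. In the BCL2 family Bmf (0.89) and the survival gene Mcl1 (0.45) rose, Bid (−0.68) and Bak1 (−0.41) fell, and 8 of 15 genes, Bcl2 and Bcl2l1 included, did not pass.

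Cell cycle genes moved by small amounts. Of 20 genes of mitosis 14 rose and 1 fell, but 9 rose without replicate 1 and with clones summed per pool, and 5 in WT–mCherry libraries alone, with a median of 0.14 and a highest value of 0.35 (Bub1), and 2 of the 20 had no overlap, against 32.1% of all genes. Of 21 genes of DNA replication 4 rose and 7 fell (median −0.06), against 26.8% and 28.3% of all genes. Among cyclins D and their inhibitors Ccnd3 (0.61) rose and Ccnd2 (−0.62) and Ccnd1 (−0.29) fell. In the Myc network Myc did not pass, at 2206 to 2694 (median 2470) and 2100.1 to 2829.7 (median 2375) normalized counts (log2 fold change −0.01 ± 0.07 (SE, adjusted p = 0.92)), Mycn fell by 0.21, and Mycl fell from 5776 to 6399 (median 6079.8) to 2445 to 2979.6 (median 2779) (−1.16 ± 0.04 (SE, adjusted p = 2.4e-11)). Of 9 genes of the let-7 axis, a miRNA family that represses stem cell genes and is itself held back by LIN28 proteins, Lin28a, Lin28b (−0.39) and Arid3b (−0.78) fell and Hmga2 (0.73) and Igf2bp2 (0.90) rose.

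Imprinted genes, expressed from 1 parental allele, gave 7 rises and 5 falls of 20, against 26.8% and 28.3% of all genes. Phlda2, a growth-restricting gene of the placenta, fell from 2158 to 3392 (median 2827) to 298 to 495 (median 345) normalized counts (log2 fold change −2.91 ± 0.13 (SE, adjusted p = 1.2e-10)), and the Dlk1–Meg3 locus fell at Meg3 (−0.54), Rian (−0.55), Mirg (−0.63) and Dlk1 (−0.40). H19 was at 11139, 10312 and 17230.2 normalized counts in WT–mCherry cells at 96 h and at 34570.2, 27427 and 34133 at 120 h. In WT–emiRFP cells it was at 525, 679 and 497 and then at 4325, 5953 and 3341. The clones were thus far apart at both times, with the WT–emiRFP libraries of 120 h below the WT–mCherry libraries of 96 h, while each clone rose (log2 fold change 2.09 ± 0.28 (SE, adjusted p = 1.3e-05)). Mest had the same arrangement, at 11024, 9889 and 11098 and then 39173, 32785 and 44502 in WT–mCherry cells and at 1022, 1012 and 754 and then 6078, 8760.1 and 5145 in WT–emiRFP cells (2.33 ± 0.18 (SE, adjusted p = 4.9e-08)). Nnat (2.14) and Plagl1 (2.02) also rose in both clones from a higher level in WT–mCherry cells.

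Of 13 genes that respond to dissociation of cells 10 rose and none fell, but the libraries of replicate 2 at 120 h carried much of this. Fosb was at 10.3, 1447 and 4.08 normalized counts in WT–mCherry cells and at 25.7, 1743 and 6.47 in WT–emiRFP cells at 120 h, in the order of replicates 1 to 3, against 8.01 to 27.6 (median 10.9) at 96 h. Only the middle values were high. Without those 2 libraries the log2 fold changes were −0.59 for Fos, −0.27 for Fosb and −0.70 for Egr1, against 2.00, 5.30 and 0.21 with them, and the list held 6 rises and 2 falls. Without the same libraries falls went from 2 to 4 in the formative pluripotency and the neural progenitor lists, from 3 to 5 in the BCL2 family, from 1 to 2 among genes of mitosis, from 0 to 2 among glycolysis genes and from 0 to 1 among germ cell genes, and rises from 3 to 5 in the list of epithelial-to-mesenchymal transition. The mitochondrially encoded and ribosomal protein genes are given both ways above. The caudal list then had 10 falls of 12, the somite list 12 rises of 14, the haematoendothelial list 12 rises of 17 and the naive pluripotency list 9 rises of 12.

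Some other list counts rested on 1 replicate number. Without replicate 1 the number that fell was 2 rather than 4 for neuronal genes, 4 rather than 7 for DNA replication genes (4 with clones summed per pool as well) and 1 rather than 0 for somite genes, and 1 rather than 2 genes of the let-7 axis rose. Without replicate 2 the number that fell was 4 rather than 2 for lateral plate and cardiac genes and 1 rather than 3 for the Myc network, and 2 rather than 4 extraembryonic endoderm genes rose. Without replicate 3 the number was 3 rather than 6 for BMP pathway genes, 2 rather than 4 for Notch pathway genes and 4 rather than 7 for DNA replication genes, and 3 rather than 5 genes rose among cyclins D and their inhibitors. Of the ribosomal protein genes 5 to 12 fell with 1 number left out.

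Other counts differed when 1 clone was fitted alone, and these differences between counts were not tested. All list counts of single clones, here and above, are to be read against fewer calls over all genes. In WT–mCherry libraries alone 3209 genes rose and 3060 fell of 17952 tested. In WT–emiRFP libraries alone 3961 rose and 4259 fell of 18004. In WT–mCherry libraries alone 2 rather than 4 formative pluripotency genes rose, and falls were 2 rather than 4 for neuronal genes, 2 rather than 6 for BMP pathway genes and 4 rather than 7 for matrix genes. In WT–emiRFP libraries alone 17 rather than 11 Hox genes and 4 rather than 2 neural progenitor genes fell, and 2 rather than 4 Wnt ligands rose. Among the named genes, Nrarp (79.4% of exonic bases), Hoxd3 (62.8%), Hoxb3 (52.9%), Hoxd4 (52.3%), Bmp5 (46.7%) and Notum (38.1%) overlap other transcripts, mostly of the opposite strand, and smaller overlaps were found for Fgf15 (25.7%), Bak1 (25.5%), Spry1 (24.4%), Ccnd1 (23.4%), Mest (23.1%) and Dll1 (20.5%), among others, so that their values are less certain.

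**Figure D4:**
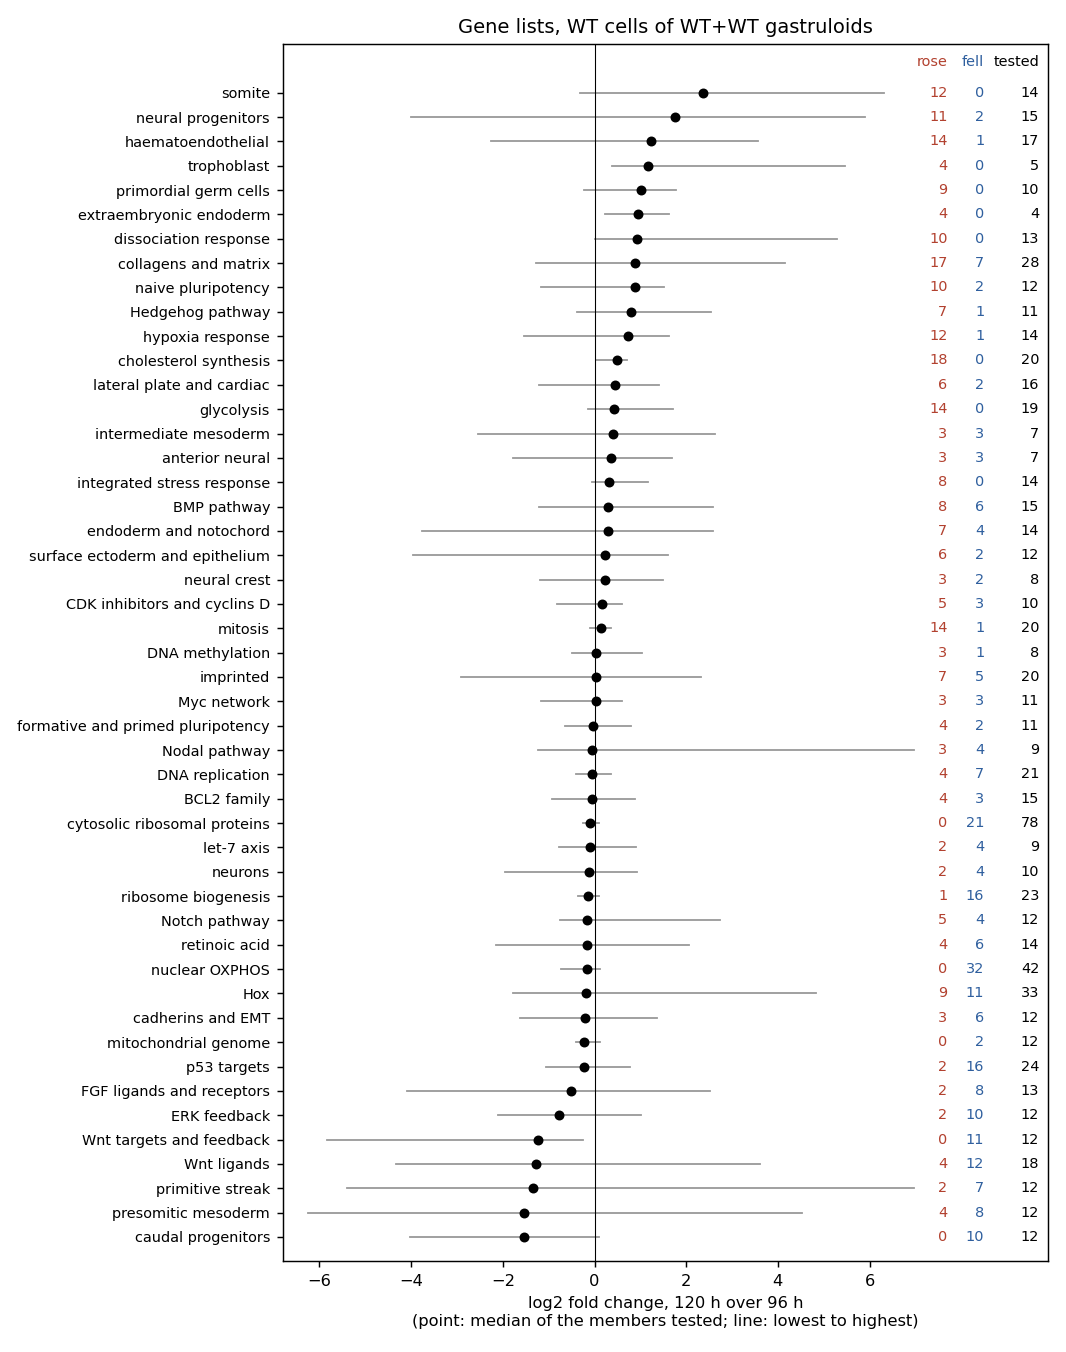
Median (point) and range (line) of the log2 fold changes from 96 h to 120 h over the tested members of each gene list, ordered by median, with the numbers that rose, fell and were tested at the right. The somite list has the highest median, 2.36, and the caudal progenitor and presomitic mesoderm lists the lowest, −1.55 and −1.54.

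The 2-fold changes were placed in the full course of WT cells, from mES cells at 0 h to gastruloids at 144 h with 6 libraries per time, as a description only. Of the 1573 genes that rose at least 2-fold, 628 (39.9%) had their highest mean at 144 h, 252 (16.0%) at 120 h and 599 (38.1%) at 0 h. Of the 832 genes that fell at least 2-fold, 565 (67.9%) had their highest mean at 96 h and 40 at 0 h. Both sets were chosen by their change between 96 h and 120 h. A highest mean at 96 h was thereby shut out for risers, and one at 120 h for fallers, so the contrast is partly fixed. The change went on in the same direction at 144 h for most genes, as 1258 of the risers (80.0%) had a higher mean at 144 h than at 120 h and 547 of the fallers (65.7%) a lower one.

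The course differed between gene groups. T had means of 46385 ± 7618 normalized counts (mean ± SD, n = 6) at 72 h and 25599 ± 2983 at 96 h, then 1894 ± 393 by 120 h and 161 ± 53.4 by 144 h. Msgn1 followed later, at 38.6 ± 24.9, 7829 ± 919, 103 ± 55.5 and 3.75 ± 1.33 at the same times, so that among these times its high level was seen at 96 h only. Meox1 was at 667 ± 96 at 96 h, 9207 ± 1625 at 120 h and 3863 ± 1797 at 144 h, and Uncx at 8.22 ± 2.14, 659.7 ± 128 and 199 ± 107, with the highest mean of both genes at 120 h. Nanog began at 40118 ± 2391 in mES cells, was lowest at 48 h (3798 ± 738), was at 11784 ± 784 by 72 h, and had means of 7474 ± 1036 and 15714 ± 2394 at the compared times, followed by 20065 ± 3762 at 144 h. Its mean at 120 h stayed below that of mES cells. Hoxc10 was at 5.93 ± 2.71 at 96 h, 169 ± 86.8 at 120 h and 227 ± 149.6 at 144 h.

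Whether the 2 WT clones changed alike was tested as a clone-by-time term in the same 12 libraries. Without regard to the gastruloids of origin, no gene passed in edgeR's quasi-likelihood test (lowest adjusted p 0.087), with 1561 genes at an unadjusted p under 0.05, and DESeq2 called 68. Both clones of a replicate were sorted from the same gastruloids, however, and same-numbered libraries of a time deviated together. With the gastruloid pool as a block, a fit chosen after these values were seen, 2068 genes passed, 801 (4.27%) with a more positive and 1267 (6.76%) with a more negative change in WT–emiRFP than in WT–mCherry cells. Across all genes the median difference was −0.01. The count was 750 without replicate 1, 1331 without replicate 2 and 1132 without replicate 3, of which 739, 1179 and 1080 were among the 2068.

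Within the pools, genes of presomitic mesoderm had more negative changes in WT–emiRFP cells and genes of naive pluripotency more positive ones. Of the 12 presomitic mesoderm genes tested, 10 had a more negative change in WT–emiRFP cells and none a more positive one, with a median difference of −0.83, against 6.76% of all genes. Tbx6 changed by −3.29 on the log2 scale in WT–mCherry cells and by −4.42 in WT–emiRFP cells, a difference of −1.13 ± 0.08 (SE, adjusted p = 5.5e-06). The Notch ligand Dll1 differed by −1.02 ± 0.05 (SE, adjusted p = 6.1e-07) and Msgn1 by −1.30 ± 0.13 (SE, adjusted p = 7.1e-05). Mesp2, which rose by 3.30 and 2.22, differed by −1.07 ± 0.16 (SE, adjusted p = 0.00097). For Tbx6 and Mesp2, all 3 WT–mCherry libraries at 120 h were above all 3 WT–emiRFP libraries. Of the Hox genes, 23 of 33 had a more negative change in WT–emiRFP cells, between −0.98 for Hoxd3 and −0.35 for Hoxb4, and none a more positive one. Of the Notch pathway genes this held for 8 of 12 and of the somite genes for 6 of 14, among them Meox1 (−0.45), while Uncx differed by 0.07 ± 0.35 and did not pass.

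Of the 12 naive pluripotency genes, 11 had a more positive change in WT–emiRFP cells and none a more negative one (median difference 0.48), against 4.27% of all genes. Nanog differed by 0.60 ± 0.07 (SE, adjusted p = 0.00014), Zfp42 by 0.53 ± 0.05 (SE, adjusted p = 3.3e-05) and Tcl1 by 0.77 ± 0.09 (SE, adjusted p = 0.00024). The exception was Klf4, at 0.28 ± 0.10. Pou5f1 differed by 0.47, and 6 of 10 primordial germ cell genes had a more positive change. Of the genes at a mean log2 CPM of at least 1, those with the most positive differences were the imprinted genes H19 (1.62) and Mest (0.96), the neurofilament gene Nefm (0.97), the metalloprotease gene Adam12 (0.93) and the myosin gene Myo1f (0.92). H19 and Mest began at far lower levels in WT–emiRFP cells and stayed below WT–mCherry cells at 120 h. At the other end were Kcnk3 (−1.31), Msgn1, Ajap1 (−1.28), Gbp2b (−1.18) and Tbx6. Without replicate 2 of 120 h, 10 presomitic mesoderm genes again passed as more negative and 12 naive genes as more positive.

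The change was then compared with that of WT–mCherry cells that grew beside p53KO cells, in libraries that share none with WT + WT. These cells had 2939 genes that rose (16.2%) and 3035 that fell (16.7%) of 18130 tested. Of the 9978 genes called in WT + WT gastruloids and tested there, 5195 (52.1%) were called in the same direction and 46 in the opposite one, and the shared calls made up 87.0% of theirs. In p53KO–emiRFP cells 4202 (24%) rose and 3545 (20.2%) fell of 17512, and of 9572 genes called in WT + WT gastruloids and tested there 4073 (42.6%) were called in the same direction and 1043 in the opposite one, the shared calls making up 52.6% of theirs. In WT–mCherry cells beside p53KO cells 13 of 13 somite genes rose, 8 of 12 caudal genes fell and 3 rose, and 10 of 12 Wnt target genes fell and 2 rose. Other lists departed from WT + WT gastruloids. Of 12 presomitic mesoderm genes 6 rose and 5 fell (median 0.22, against −1.54 in WT + WT gastruloids). Of 33 Hox genes 17 rose and 6 fell (median 0.43, against −0.20). WT–mCherry libraries beside p53KO cells held H2bc14 at 112 to 328 normalized counts at 96 h and 214 to 454 at 120 h, which was 2.40% and 5.56% of the mean of the p53KO cells. This share was higher than beside WT–emiRFP cells, and its part in the differences that follow was not tested.

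A test of the difference between the changes of WT–mCherry cells beside p53KO and beside WT cells called 52 of 18845 genes, 37 (0.196%) with a more positive and 15 (0.0796%) with a more negative change beside p53KO cells, and 1626 genes had an unadjusted p under 0.05. Most of the leading genes were ones that fell or rose strongly in WT + WT gastruloids. Msgn1 went from 7204 ± 615 to 139.7 ± 56.6 normalized counts beside WT cells (mean ± SD, n = 3) and from 7066 ± 722 to 503 ± 81.1 beside p53KO cells, a difference of 1.88 ± 0.25 (SE, adjusted p = 0.016). Tbx6 stood at 778 ± 90.0 and 2293 ± 615 at 120 h (difference 1.64 ± 0.25 (SE, adjusted p = 0.02)). Aldh1a2 went from 6947 ± 971 to 2081 ± 477 beside WT cells and from 6571 ± 1138 to 6787 ± 1525 beside p53KO cells (difference 1.79 ± 0.25 (SE, adjusted p = 0.017)). Dkk4 (2.52) and Ptgds (2.02), which encodes a prostaglandin D synthase, also had more positive changes. In the other direction stood Kdr, at 733 ± 74.6 and 223 ± 54.9 at 120 h (difference −1.39 ± 0.25 (SE, adjusted p = 0.034)), Lefty1 (difference −1.41 ± 0.19 (SE, adjusted p = 0.016)), the activin and BMP antagonist Fst (−1.33), AU015836 (−1.29) and Sertad4 (−1.28). With 1 replicate number left out, between 1 and 15 genes passed. The surplus of more positive changes depended on the fit. More positive and more negative changes numbered 43 and 15 with TMM scaling and 283 and 293 with the replicate block. They numbered 155 and 140 with DESeq2 and 284 and 237 without the low-count filter.

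The same test between p53KO–emiRFP cells of WT + p53KO gastruloids and WT–emiRFP cells of WT + WT gastruloids, which differ in genotype and in neighbours at once, called 6838 of 18632 genes, 3874 (20.8%) with a more positive and 2964 (15.9%) with a more negative change in p53KO cells. In WT–emiRFP cells Tbx6 had means of 8904 ± 1011 at 96 h and 418 ± 55.7 at 120 h, and in p53KO cells of 5317 ± 913 and 6125 ± 820 (difference 4.62 ± 0.19 (SE, adjusted p = 1.6e-09)). Msgn1 was at 4873 ± 787 and 1696 ± 88.6 in p53KO cells (difference 5.49 ± 0.20 (SE, adjusted p = 7.9e-10)). The potassium channel Kcnk3 (5.52), the neuropeptide receptor Npbwr1 (4.78) and the protease Tll2 (4.51) were, with Msgn1 and Tbx6, the 5 most positive at a mean log2 CPM of at least 1. Kdr was at 1308 ± 184 at 120 h in WT–emiRFP and at 165 ± 56.6 in p53KO cells (difference −2.51 ± 0.31 (SE, adjusted p = 1.9e-05)). Fam169b (−2.67), Dner (−2.64), the Polycomb partner Phf19 (−2.53) and Zscan4d (−2.53), a member of a family of near-identical genes, were the others at the negative end.

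By list, all 12 naive pluripotency genes and all 10 primordial germ cell genes had a more negative change in p53KO than in WT–emiRFP cells, against 15.9% of all genes. In p53KO cells themselves 2 of the 12 naive genes rose and 7 fell, against 24% and 20.2% of all genes. More positive changes were found for 25 of the Hox genes with none more negative, and for 11 of 12 Wnt target, 10 of 12 caudal and 10 of 12 presomitic mesoderm genes, against 20.8% of all genes. Of the presomitic mesoderm genes 1 had a more negative change, and of the Wnt target and caudal genes none. The WT–emiRFP libraries of this test are among the 12 of the main comparison, so that both rest on shared samples.

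**Figure D5:**
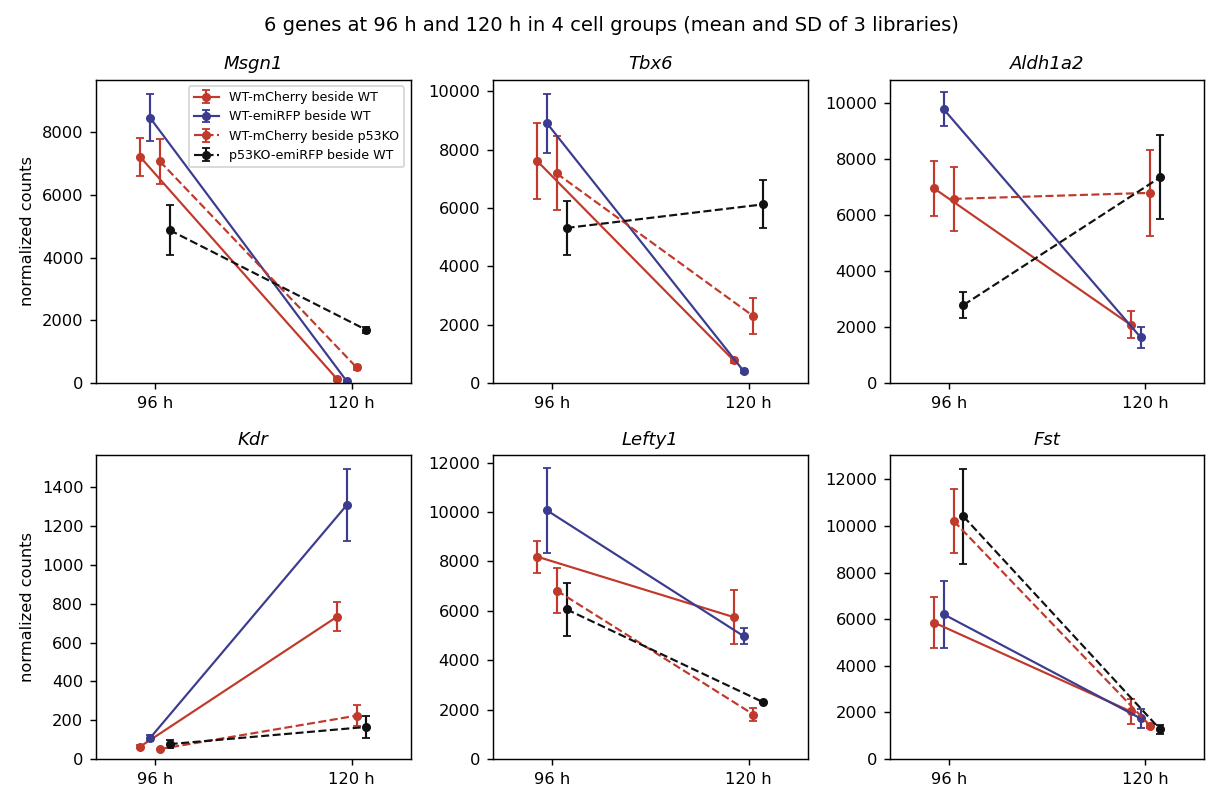
Normalized counts (y axis, linear) of Msgn1, Tbx6, Aldh1a2, Kdr, Lefty1 and Fst at 96 h and 120 h in WT–mCherry and WT–emiRFP cells of WT + WT gastruloids and in WT–mCherry and p53KO–emiRFP cells of WT + p53KO gastruloids, with points for the mean of 3 libraries, bars for 1 SD and lines joining the times. Tbx6 and Aldh1a2 fall in both WT clones of WT + WT gastruloids, and in p53KO cells their means at 120 h lie above those at 96 h.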

How the data were processed

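RNA-seq counts per gene symbol were deposited as 1 table of 69 libraries. Per the labels and the study's methods, the authors trimmed reads with Trim Galore 0.6.7 and aligned them to GRCm38.p6 with STAR 2.7.11b, and the deposited counts are the uniquely mapped reads per gene that STAR reported, not normalized. The libraries were stranded, and which strand column was taken is not given in the sources used here. Depth was 46254303 to 61890032 counts per library, so that genes with fewer than about 10 counts per library are the imprecise ones.

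Counts were scaled by median-of-ratios size factors taken across the 69 libraries. Genes were kept by filterByExpr in edgeR 4.0.16 (R 4.3.3) and tested with glmQLFit and glmQLFTest on clone and time over the 12 libraries, at a Benjamini-Hochberg adjusted p under 0.05. Differences in the change between clones, neighbours and genotypes were interaction terms, for the clones also with the gastruloid pool as a block, since both clones of a number and time came from the same gastruloids and deviated together (r 0.31 to 0.69 over 13885 genes). SE is the log2 fold change divided by the square root of its F statistic. DESeq2 1.42.0, TMM scaling, no filter, summed clones, single clones, a replicate block and left-out libraries were alternatives, and the fits were tested on simulated data. Exon overlap was read from GENCODE vM21.

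Named genes were the 15 largest rises and 15 largest falls at a mean log2 CPM of at least 1 that moved the same way in 6 of 6 pairs, the members of 49 lists, and the 5 largest differences in each direction of the interaction tests. The genes and lists were chosen with earlier results of these data known. Samples were grouped by their labels. No library pair had identical counts. Some list members are not reported here.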

Additional observations from a re-analysis of the deposited data

Results flagged for a closer look

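The changes from 96 h to 120 h differed between cell groups in tests of the difference itself. In WT–mCherry cells, 52 genes changed differently with p53KO than with WT neighbours. The differences of the log2 fold changes were 2.52 for Dkk4, 2.02 for Ptgds, 1.88 for Msgn1, 1.79 for Aldh1a2 and 1.64 for Tbx6, and −1.41 for Lefty1, −1.39 for Kdr, −1.33 for Fst, −1.29 for AU015836 and −1.28 for Sertad4.

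For p53KO–emiRFP cells of WT + p53KO gastruloids against WT–emiRFP cells of WT + WT gastruloids, 6838 genes passed. The differences were 5.52 for Kcnk3, 5.49 for Msgn1, 4.78 for Npbwr1, 4.62 for Tbx6 and 4.51 for Tll2, and −2.67 for Fam169b, −2.64 for Dner, −2.53 for Phf19, −2.53 for Zscan4d and −2.51 for Kdr. Msgn1, Tbx6 and Kdr stood among the leading genes of both tests, with the same sign in each. The tests share no library: the first uses WT–mCherry and the second emiRFP libraries, although the cells of a replicate came from the same gastruloids.

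Between the 2 WT clones, with the gastruloid pool as a block, 2068 genes passed. The differences of the log2 fold changes, WT–emiRFP minus WT–mCherry, were 1.62 for H19, 0.97 for Nefm, 0.96 for Mest, 0.93 for Adam12 and 0.92 for Myo1f, and −1.31 for Kcnk3, −1.30 for Msgn1, −1.28 for Ajap1, −1.18 for Gbp2b and −1.13 for Tbx6. Kcnk3, Msgn1 and Tbx6 had a more positive change in p53KO–emiRFP cells than in WT–emiRFP cells, and these 2 tests share the WT–emiRFP libraries.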

How the results depend on the processing

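The count of 10331 genes was 10234 with TMM scaling, 10344 with DESeq2, 8653 with both clones summed per gastruloid pool, 9930 without replicate 2 of 120 h (chosen after seeing the data), and 8612 to 9127 with 1 replicate number left out. It fell to 6269 with WT–mCherry and to 8220 with WT–emiRFP libraries alone, each with 6 libraries, and to 2405 with the added 2-fold limit. Across times the correlation r of same-numbered libraries was −0.03 to 0.12 for number 1 and 0.30 to 0.48 for the others, so the numbers were not taken to pair the times. With the replicate block 11729 genes passed, and 10816 with the block on summed clones.

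For the clone-by-time difference, 335 genes passed with the replicate number and 2068 with the gastruloid pool as the replicate block, 68 with DESeq2, 457 without the low-count filter and 0 to 0 with 1 replicate number left out. Within gastruloid pools, 750 to 1331 passed with 1 number left out, 2167 without replicate 2 of 120 h and 2095 with TMM scaling (all chosen after seeing the data). For the neighbour difference, 576 passed with the replicate block, 295 with DESeq2, 521 without the filter and 1 to 15 with 1 number left out, which is 1 without replicate 1, 4 without replicate 2 and 15 without replicate 3. For the genotype difference 8672 passed with the replicate block and 4543 to 5468 with 1 number left out. The cause of these shifts was not tested. With 1 replicate number left out, the log2 fold change was −0.50 to 2.57 for Fos, −0.33 to 6.13 for Fosb and −0.72 to 0.55 for Egr1, each negative without replicate 2, as without its 120 h libraries alone (−0.59, −0.27 and −0.70). Of 749 named genes tested, no other was counted as reversed under the alternatives run, a count that does not cover every change of sign. The 3 histone H2B genes of the sort check, none of which passed, had a median log2 fold change of −0.12. That median was 0.55 in WT–mCherry and −0.31 in WT–emiRFP libraries alone. Depth and 3 replicates per clone limit genes at a few counts per library.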

Other observations

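Outside the comparison of times, the levels of 2 imprinted genes, H19 and Mest, were apart between the clones, a difference chosen after their values were seen and not tested. At 96 h H19 was 11139, 10312 and 17230 normalized counts in WT–mCherry cells and 525, 679 and 497 in WT–emiRFP cells. Mest was at 11024, 9889 and 11098 against 1022, 1012 and 754. At 120 h the clones were apart in the same direction for both genes.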
